A study of Mus musculus with 13 samples.

Results

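The interleukin-1, tumour necrosis factor and inflammasome genes of newborn mouse microglia are described here across 13 RNA-seq libraries. The group was set by name and holds 10 genes, Il1a, Il1b, Il1rn, Tnf, Il6, Il10, Il18, Nlrp3, Pycard and Casp1, out of 55487 in the deposited table. All 10 were found by gene identifier and all 10 passed the filter on low counts, as did 15511 genes in all. Microglia, the resident macrophages of the brain, were taken from whole brain with magnetic beads against CD11b on postnatal day 4, per the titles, while the series text gives a span of neonatal days. One group came from pups of dams that underwent maternal immune activation (MIA) and the other from control pups (CON). The labels do not state the strain, the sex, the agent the dams received or whether a library is 1 pup, so p-values measure the spread between these libraries only, which may be technical. CON 1 to CON 5 and MIA 1 to MIA 5 are the retained libraries. The word excluded stands in the titles of CON 6, MIA 6 and MIA 7, which are shown without entering the main comparison. The tissue was not perfused, the meninges were removed, and it was digested with papain at a warm temperature before the beads were added.

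IL-1α and IL-1β are cytokines that share a receptor, and the Il1rn product occupies that receptor without signalling. TNF is made as a membrane protein and shed. NLRP3 is a cytosolic sensor that, once triggered, assembles with the adaptor ASC, the product of Pycard, and recruits caspase-1, which cuts the precursors of IL-1β and IL-18 into their active forms. In macrophages Il1a, Il1b, Tnf, Il6 and Nlrp3 are known as genes induced by NF-kB, while Pycard, Casp1 and Il18 are commonly present at rest. Il10 encodes a cytokine that restrains macrophage activation.

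Total counts ran from 25387055 to 35593541 per library, and the upper limit for an undetected gene, 3 counts, came to 0.0875 to 0.117 CPM. CPM is the count scaled to library size and between libraries by the TMM method. The 8 microglia markers examined summed to 12387 to 24292 CPM, and no marker of any list was at 0 in all libraries. Markers of lymphocytes summed to 0.207 to 2.96 CPM, those of mast cells to 0.276 to 3.38, those of monocytes to 14.2 to 34.2 and those of neutrophils to 28.0 to 116 CPM. Markers of endothelium, the vessel lining, summed to 826 to 1367 CPM in CON 1 to CON 5 and 2469 to 4155 CPM in MIA 1 to MIA 5, and those of neurons to 37.8 to 57.1 and 82.5 to 119 CPM. In the excluded libraries the endothelial sum was 2610 CPM in CON 6 against 2071 and 2268 in MIA 6 and MIA 7. CON 1 and CON 2 lay below the other 11 libraries in 6 of the 12 sums examined, those of lymphocytes, red cells, endothelium, neurons, the oligodendrocyte lineage and the dissociation genes, and the gap was widest in 2. The 12 dissociation and immediate early genes, which cells switch on within minutes of handling, summed to 2665 and 2448 CPM there against 6400 to 10666 CPM in the other 11 libraries, and the red cell genes to 61.4 and 80.3 CPM against 1163 to 3055 CPM. The comparison of the groups is therefore also given without them.

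Across the libraries the genes fell into a set with a wide range and a set with a narrow one. The sequences before the start sites of the 3 most abundant cytokine genes, and of the 2 inflammasome genes with the narrow range, are shown because these are the genes whose values the results turn on. Each window holds the 250 bases before the annotated start in RefSeq on GRCm38.p6, written 5′ to 3′ on the gene's own strand. Of the 10 genes 9 matched the table, with 12 windows; Il10 did not match. Capitals mark the motifs searched on both strands: the TATA box (TATAAA), AP-1 (TGANTCA), CRE (TGACGTCA) and NF-kB by its consensus.
Il1b, chr2:129371140-129371389, minus strand: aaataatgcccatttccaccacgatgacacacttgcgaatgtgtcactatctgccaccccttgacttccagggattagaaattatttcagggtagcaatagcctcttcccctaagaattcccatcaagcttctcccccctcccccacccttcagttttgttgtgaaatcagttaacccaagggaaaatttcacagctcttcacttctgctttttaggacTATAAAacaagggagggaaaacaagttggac
Il1a, chr2:129309973-129310222, minus strand: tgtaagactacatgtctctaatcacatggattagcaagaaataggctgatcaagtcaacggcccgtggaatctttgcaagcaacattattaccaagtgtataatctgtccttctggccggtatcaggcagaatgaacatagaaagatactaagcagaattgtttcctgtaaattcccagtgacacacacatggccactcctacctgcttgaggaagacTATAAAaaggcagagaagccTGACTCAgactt
Tnf, chr17:35202008-35202257, minus strand: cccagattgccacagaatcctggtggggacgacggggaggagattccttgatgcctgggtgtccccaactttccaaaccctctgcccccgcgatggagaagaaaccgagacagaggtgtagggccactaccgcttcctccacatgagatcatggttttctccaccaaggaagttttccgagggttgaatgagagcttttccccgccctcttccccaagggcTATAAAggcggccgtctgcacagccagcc
Pycard, chr7:127993868-127994117, minus strand: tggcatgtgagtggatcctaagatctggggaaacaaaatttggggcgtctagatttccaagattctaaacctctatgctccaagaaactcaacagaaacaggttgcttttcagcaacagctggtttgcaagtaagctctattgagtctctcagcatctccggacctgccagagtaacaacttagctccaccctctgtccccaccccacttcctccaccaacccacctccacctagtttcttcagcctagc
Casp1, chr9:5298267-5298516, plus strand: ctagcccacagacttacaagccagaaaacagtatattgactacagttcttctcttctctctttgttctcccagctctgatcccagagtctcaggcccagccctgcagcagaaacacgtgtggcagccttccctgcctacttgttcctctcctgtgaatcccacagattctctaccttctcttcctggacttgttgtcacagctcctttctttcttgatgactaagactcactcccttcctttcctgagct

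Il1b, Il1a and Tnf each held a TATA box on their own strand, at 31 to 26, 32 to 27 and 29 to 24 bases before the start. Il18 held one on the other strand, 175 to 170 bases before its start. Of 32851 promoter windows of this length 12.4% hold one. Il1a also held an AP-1 match, 12 to 6 bases before its start, as did 1 of the 3 starts of Il1rn at 141 to 135 and Il6 at 249 to 243 bases; 6.7% of windows hold one. The NF-kB consensus was matched in windows of 2 genes, Il6, at 44 to 35 bases, and Nlrp3, at 186 to 177 bases before 1 of its 2 starts, against 7.3% of windows. None of the 4 motifs was found in the windows of Pycard and Casp1, and CRE in none of the 12, against 1.5% of all windows. A match is a stretch of letters and says nothing of binding in these cells.

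Per kilobase of merged exon, a rough scale for setting different genes side by side, Tnf was the most abundant, at a median of 307 CPM per kilobase over the 13 libraries. Il1a followed at 249 and Il1b at 151 CPM per kilobase. Their ranges, 19.2 to 389 for Tnf, 48.7 to 380.5 for Il1a and 20.5 to 257 for Il1b, overlapped broadly, so the order of these 3 is not firm. Pycard stood at 42.7 CPM per kilobase (31.9 to 60.2), and its lowest library lay above the highest of each gene that follows. Casp1, Nlrp3 and Il18 stood at 22.1, 19.8 and 17.9 CPM per kilobase, and with ranges of 16.8 to 31.2, 8.54 to 27.4 and 13.5 to 21.7 they do not separate. Il10, at 4.34, and Il1rn, at 3.80 CPM per kilobase, were next, and Il6 was the least abundant at 0.724. Exon lengths, 1031 to 5535 bases, were taken from GENCODE M21, which may not be the authors' annotation. Merged exons join all annotated transcripts of a gene, so a gene whose main transcript is much shorter than that reads too low. Pycard was given 3800 bases in 3 merged exons and Il1rn 5535 bases, so their places in this order are not firm.

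**Figure D1:**
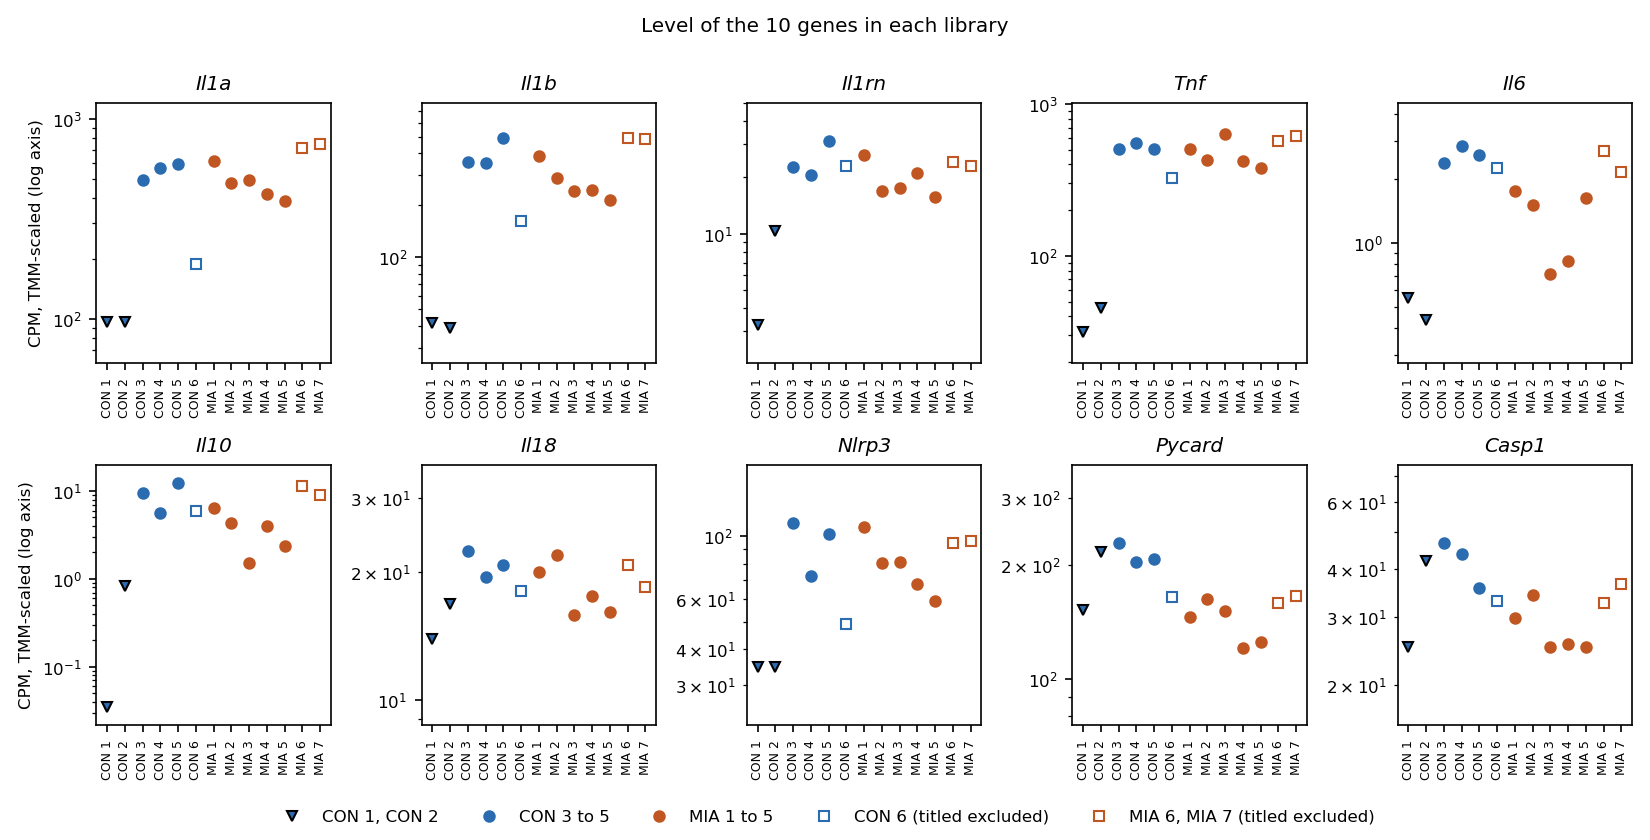
Level of each of the 10 genes in CPM (TMM-scaled, log axis) in each of the 13 libraries. Filled points are retained libraries, triangles CON 1 and CON 2, open squares the libraries titled as excluded; Tnf runs from 31.4 to 637 CPM while Pycard runs from 121 to 229 CPM.

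The IL-1 ligand genes did not separate the groups. Il1b was at 41.5, 39.1, 355, 349 and 489 CPM in CON 1 to CON 5 and at 384, 287, 242, 245 and 214 CPM in MIA 1 to MIA 5. CON 1 and CON 2 lay far below every other library, CON 3 to CON 5 lay at or above 4 of the 5 MIA libraries, and the groups overlapped. The excluded libraries held 163 CPM in CON 6, 489 in MIA 6 and 487 in MIA 7. The group means were 254.8 ± 204 and 274.5 ± 66.6 CPM (SD, n = 5 each), and the log2 fold change was 0.11 ± 0.70 (standard error; adjusted p = 0.953 by edgeR). Without CON 1 and CON 2 it was −0.55 ± 0.19, which did not pass either (adjusted p = 0.0994 by edgeR).

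Il1a, the other agonist, which lies next to Il1b on chromosome 2, had the same 3 libraries at the low end, CON 1, CON 2 and CON 6. It was at 96.1, 96.4, 492, 565 and 598 CPM in CON 1 to CON 5, and at 615, 477, 497, 423 and 388 CPM in MIA 1 to MIA 5. CON 6 held 189 CPM, between the low pair and the rest, while MIA 6 and MIA 7 held 715 and 751 CPM, the 2 highest values of the series. For Il1a the log2 fold change was 0.38 ± 0.55 (standard error; adjusted p = 0.762 by edgeR), and −0.21 ± 0.13 without CON 1 and CON 2 (adjusted p = 0.3405 by edgeR).

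Il1rn, whose product blocks the IL-1 receptor, was at 3.25, 10.4, 22.8, 20.6 and 31.3 CPM in CON 1 to CON 5 and at 26.3, 16.9, 17.6, 21.0 and 15.8 CPM in MIA 1 to MIA 5. Here CON 6, at 23.1 CPM, sat among the retained libraries and not with the low pair, as did MIA 6 and MIA 7 at 24.3 and 23.1 CPM. For Il1rn it was 0.14 ± 0.48 (standard error; adjusted p = 0.905 by edgeR), and −0.36 ± 0.18 without CON 1 and CON 2 (adjusted p = 0.231 by edgeR). Set against its antagonist within a library, Il1b had a log2 ratio to Il1rn of 3.68 in CON 1 and 1.91 in CON 2, and of 3.54 to 4.08 in the 8 other retained libraries. CON 1 was thus low in both genes at a ratio within that range, and CON 2 was low mainly in Il1b; CON 6 stood at 2.82. The groups averaged 3.52 ± 0.91 and 3.81 ± 0.20 (SD, n = 5 each) and overlapped; CON 3 to CON 5 alone averaged 4.00 ± 0.07, with 4 MIA libraries below them and 1 above.

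Tnf had the widest span of the abundant members, 20.3-fold between the lowest and the highest library. It was at 31.4, 45.7, 505, 554 and 503 CPM in CON 1 to CON 5, and at 507, 431, 637, 419 and 380 CPM in MIA 1 to MIA 5. CON 3 to CON 5 and the MIA libraries shared one range, and the excluded CON 6, MIA 6 and MIA 7 held 326, 569 and 614 CPM. MIA over CON gave a log2 fold change of 0.54 ± 0.77 (standard error; adjusted p = 0.759 by edgeR); without CON 1 and CON 2 it was −0.14 ± 0.14 (adjusted p = 0.569 by edgeR). MIA 3, the highest in Tnf of all libraries, was the second lowest of the retained MIA libraries in Il1b, and its log2 ratio of Il1b to Tnf, −1.40, was the lowest of the 13; CON 1, at 0.40, had the highest.

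The interleukin genes Il6 and Il10 were scarce. Il6, a cytokine of the acute-phase response, had 16, 12, 81, 93 and 82 counts in CON 1 to CON 5 and 53, 39, 21, 22 and 46 in MIA 1 to MIA 5, or 0.437 to 2.83 and 0.715 to 1.76 CPM. All 5 MIA libraries lay below CON 3 to CON 5, as they did for 9.72% of all tested genes, and above CON 1 and CON 2. The excluded CON 6, MIA 6 and MIA 7 held 61, 83 and 55 counts. Its log2 fold change was −0.45 ± 0.54 (standard error; adjusted p = 0.701 by edgeR), or −1.02 ± 0.39 without CON 1 and CON 2 (adjusted p = 0.113 by edgeR).

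Il10 had 1 count in CON 1 and 23 in CON 2, against 322, 187 and 392 in CON 3 to CON 5. In MIA 1 to MIA 5 it had 191, 111, 45, 106 and 67 counts, and in CON 6, MIA 6 and MIA 7 it had 161, 350 and 230. The value of CON 1 lies under the limit of 3 counts, so no fold is given against it. In CPM the CON libraries spanned 0.0345 to 12.4 and the MIA libraries 1.53 to 6.33, with MIA 1 alone above the lowest of CON 3 to CON 5, which was 5.69 CPM. Its log2 fold change was −0.62 ± 0.94 (standard error; adjusted p = 0.772 by edgeR). It was −1.31 ± 0.39 without CON 1 and CON 2, just short of the threshold (adjusted p = 0.0504 by edgeR), and −0.59 ± 0.46 with all 13 libraries except those (adjusted p = 0.511 by edgeR). Markers of border-associated macrophages, another brain macrophage, summed to 838 CPM in MIA 3, the MIA library lowest in Il10, and to 1744 to 2229 CPM in the other 4. MIA 5, next lowest in Il10 at 2.37 CPM, had a sum of 2177 CPM. CON 1 and CON 2, the lowest of all in Il10, had sums of 1355 and 1937 CPM. The part of these cells in the Il10 value was not tested.

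Nlrp3, the sensor, had CON 1 and CON 2 below the other 11 libraries, as the cytokine genes above did and its partners Pycard and Casp1 did not. Over the other 11 libraries its Pearson correlation of log2 CPM was 0.82 with Il1a, 0.85 with Il1b and 0.72 with Tnf. With Il1rn, Il10 and Il6 it was 0.50, 0.51 and 0.22, against 0.45 with Pycard and 0.39 with Casp1. Nlrp3 was at 34.6, 34.8, 111, 72.6 and 102 CPM in CON 1 to CON 5 and at 108, 80.3, 81.3, 68.1 and 59.3 CPM in MIA 1 to MIA 5. CON 6 was again between, at 49.0 CPM, with MIA 6 and MIA 7 at 94.5 and 96.4 CPM. The span from lowest to highest library was 3.21-fold, narrower than that of Il1b, 12.5-fold, and the log2 ratio of Il1b to Nlrp3 was 0.26 and 0.17 in CON 1 and CON 2 against 1.58 to 2.37 in the other 11. The log2 fold change was 0.16 ± 0.35 (standard error; adjusted p = 0.849 by edgeR), and −0.27 ± 0.19 without CON 1 and CON 2 (adjusted p = 0.408 by edgeR).

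Pycard was the only member past the threshold in the retained libraries. It was at 153, 216, 229, 203 and 207 CPM in CON 1 to CON 5 and at 146, 162, 151, 121 and 126 CPM in MIA 1 to MIA 5. CON 2 to CON 5 lay above all 5 MIA libraries, while CON 1 lay among them. The excluded CON 6, at 165 CPM, stood close to MIA 6 and MIA 7, at 159 and 166 CPM. Pycard fell by 0.51 ± 0.11 on the log2 scale in MIA (standard error; adjusted p = 0.0109 by edgeR), from 201 ± 29.1 to 141 ± 17.4 CPM (SD, n = 5 each), with all 5 MIA libraries below the control median. The call held in each of the 10 fits that left out 1 library (edgeR adjusted p of 0.000796 to 0.0452) and with all 13 libraries (0.0399), and was lost with all 13 except CON 1 and CON 2 (0.0564), where the difference was −0.45 ± 0.10. Its unadjusted p was 0.000539 in that fit and 0.000565 in the retained libraries, so the call was lost in the adjustment over all genes.

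Casp1, the protease that ASC recruits, was at 25.1, 42.1, 46.7, 43.8 and 35.7 CPM in CON 1 to CON 5 and at 29.9, 34.3, 25.1, 25.6 and 25.1 CPM in MIA 1 to MIA 5. CON 1 was as low as the lowest MIA libraries and CON 2 to CON 5 lay above all 5. CON 6, MIA 6 and MIA 7 held 33.1, 32.7 and 36.6 CPM. The log2 fold change, −0.47 ± 0.16 (SE), did not pass edgeR (adjusted p = 0.0839). It passed without CON 1 alone (adjusted p = 0.00492) and without CON 1 and CON 2 (−0.60 ± 0.13, adjusted p = 0.00992). DESeq2 also called it (adjusted p = 0.0415), as it called 6.92% of all genes lower. It did not pass in limma-voom (adjusted p = 0.114), or by edgeR with total counts (0.126), the replicate block (0.122) or all 13 libraries (0.182). Nor did it pass with all 13 except CON 1 and CON 2 (0.104), or in any other fit without 1 library (up to 0.201). The exact permutation test of Casp1 gave an unadjusted p = 0.0476 (2-sided, n = 5 each). Its log2 ratio to Pycard averaged −2.40 ± 0.16 in the controls against −2.34 ± 0.14 for MIA (SD, n = 5 per group).

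Il18, whose precursor caspase-1 cuts, was at 13.9, 16.8, 22.4, 19.5 and 20.8 CPM in CON 1 to CON 5 and at 20.1, 22.0, 15.8, 17.6 and 16.1 CPM in MIA 1 to MIA 5. CON 6, MIA 6 and MIA 7 held 18.0, 20.8 and 18.5 CPM. The groups overlapped throughout, with a log2 fold change of −0.03 ± 0.15 (standard error; adjusted p = 0.9345 by edgeR) and −0.20 ± 0.14 without CON 1 and CON 2 (adjusted p = 0.388 by edgeR). Il18 overlaps Bco2 on the other strand, which had 283 to 701 counts, and the library kit does not mark strand, so the Il18 values are uncertain. Il1a, Il1b and Pycard overlap opposite-strand genes that held at most 2.79% of the counts of the pair in any library.

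As a group the members gave 1 call of 10, against 10.3% of all 15511 genes tested, so the share called is that of the table as a whole. That call was downward, as for 710 genes, 4.58%, while 892 were called higher; with scaling to total counts alone the split was 496 lower and 1036 higher. No member had all 5 MIA libraries above or below all 5 controls, orders that 5.58% and 4.36% of tested genes showed. The median log2 fold change of the members was 0.04 and that of all tested genes −0.01; 5 members were below 0, and 51.1% of all genes. Without CON 1 and CON 2 the members called were Pycard and Casp1, 2 of 10 against 12.2% of genes, or 5.38% called lower, and the median of the members was −0.45, with all 10 members below 0, against a median of 0.0053 and 49.3% below 0 over all genes in that fit. That pair was the lowest of all libraries in 7 of the 10 members, so leaving it out lowers their fold changes by itself. The contrast with all genes is therefore not read as a fall of the list. In the fit of all 13 libraries except that pair the median of the members was −0.18. With all 13 libraries 1 of 10 passed, Pycard, against 4.22%, or 1.5% called lower. With all 13 except CON 1 and CON 2 edgeR called 0 of 10, against 0.561%, or 0.231% called lower, with 2 members at an unadjusted p under 0.05, as were 19.6% of all genes. Among the retained libraries Il1a, Il1b, Il1rn, Tnf and Nlrp3 were above 0 with CON 1 and CON 2 and below 0 without them; with the excluded libraries added and that pair left out, Il1a, Tnf and Nlrp3 were at 0.26, 0.10 and 0.0023. By contrast Pycard and Casp1 were below 0 in all 4 choices of libraries.

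**Figure D2:**
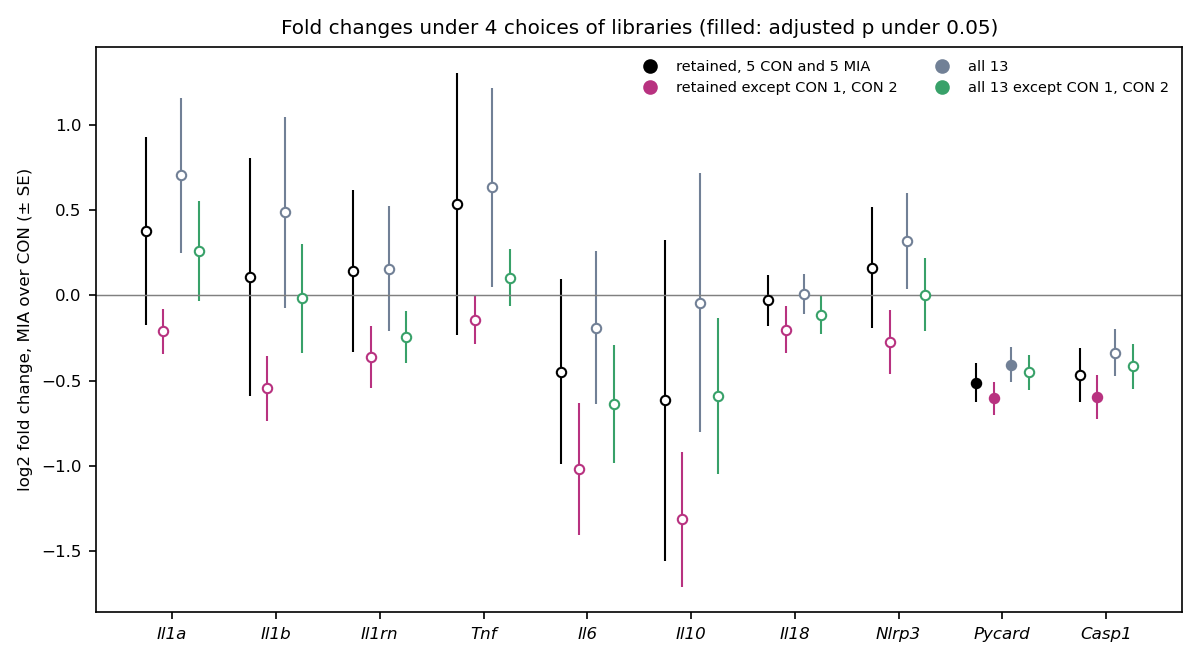
Log2 fold change of MIA over CON with its SE for the 10 genes, under 4 choices of libraries; filled points have an edgeR adjusted p under 0.05. Il1b is at 0.11 with the retained libraries and at −0.55 without CON 1 and CON 2, while Pycard stays between −0.60 and −0.41.

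CON 1 and CON 2 both lay below the other 11 libraries in 7 of the 10 members, Il1a, Il1b, Il1rn, Tnf, Il6, Il10 and Nlrp3, an order that 6.03% of all tested genes showed. The members were chosen with this contrast between libraries already seen. Pycard, Casp1 and Il18 did not show it. The low pair was not low in microglia markers, which summed to 20773 and 24292 CPM there and to 12387 to 21050 CPM in the other 11. It was low in the dissociation and immediate early sum, as given above, and the part of that in the cytokine values was not tested. CON 6 was at 9672 CPM in that sum, above every MIA library, and held less Il1a, Il1b, Tnf and Nlrp3 than any library but CON 1 and CON 2.

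**Figure D3:**
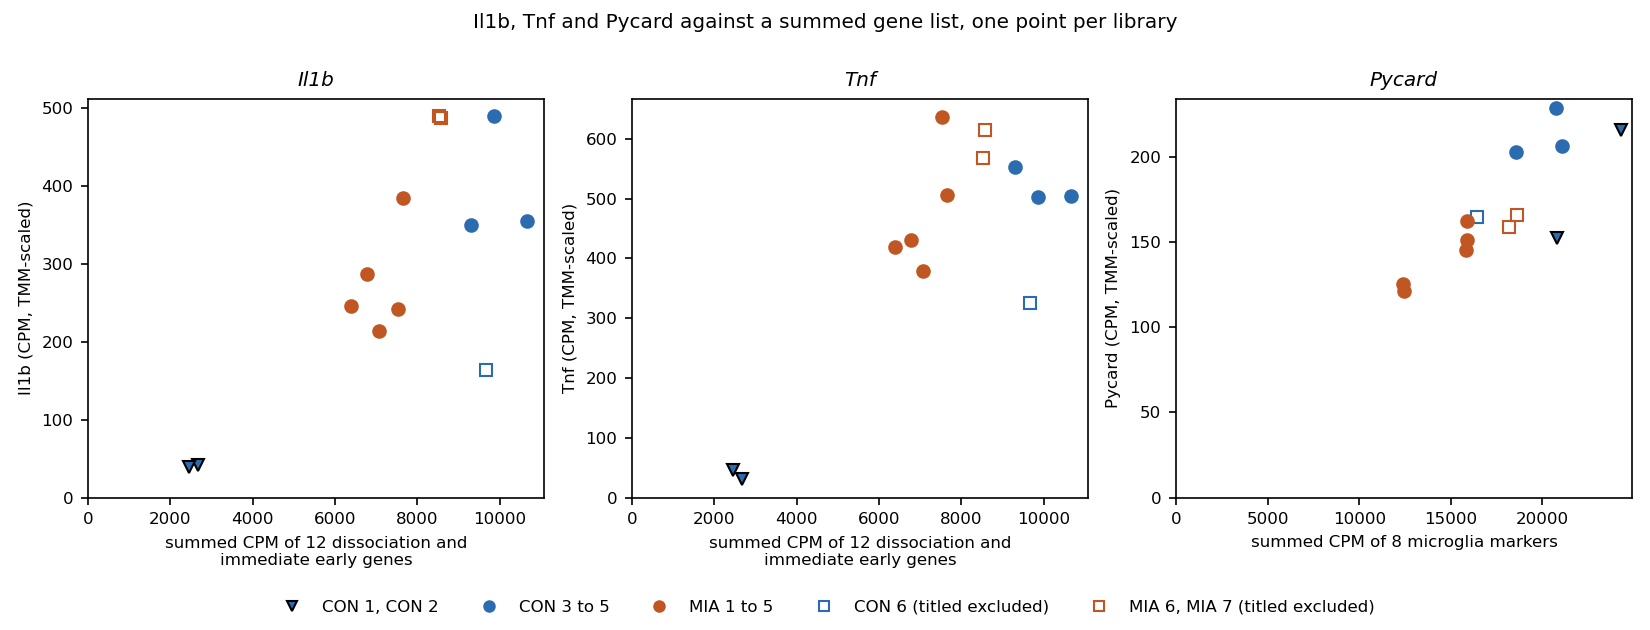
Il1b and Tnf in CPM against the summed CPM of 12 dissociation and immediate early genes, and Pycard against the summed CPM of 8 microglia markers, 1 point per library. CON 1 and CON 2 sit alone at the low end for Il1b and Tnf, CON 6 lies low in Il1b at a sum of 9672 CPM, and Pycard is lowest in MIA 4 and MIA 5, whose marker sums are 12455 and 12387 CPM.

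The fall of Pycard in MIA went with a lower sum of microglia markers, which was 18564 to 24292 CPM in CON 1 to CON 5 and 12387 to 15908 CPM in MIA 1 to MIA 5, without overlap. The excluded libraries were in the other order, 16437 CPM in CON 6 against 18148 and 18622 in MIA 6 and MIA 7. Fewer microglia in the sample and less RNA per cell, which are not the only possible reasons, cannot be told apart in bulk libraries. Set against that sum within each library, the log2 ratio of Pycard averaged −6.72 ± 0.24 in the controls against −6.68 ± 0.06 for MIA (SD, n = 5 per group), and all 5 MIA values lay inside the control range of −7.09 to −6.50, whose low end is CON 1. Against CON 3 to CON 5 alone, −6.56 ± 0.09 (SD, n = 3), 3 of the 5 MIA libraries lay below all 3 controls. Casp1 had ratios of −9.12 ± 0.39 and −9.02 ± 0.17, also with the MIA values inside the control range; CON 3 to CON 5 alone averaged −8.91 ± 0.26, with 1 MIA library below them. For Il18 the ratios were −10.15 ± 0.34 and −9.63 ± 0.20, and 4 of the 5 MIA libraries lay above the highest control, −9.85; CON 3 to CON 5 alone averaged −9.91 ± 0.07. For Tnf they were −6.85 ± 2.17 and −4.95 ± 0.21, with CON 1 and CON 2 at −9.37 and −9.05. Of the 5 MIA libraries 4 lay above the highest control, −5.07, and CON 3 to CON 5 alone averaged −5.27 ± 0.18 (SD, n = 3). Il1b did not share this, with ratios of −7.055 ± 1.898 in the controls and −5.742 ± 0.25 for MIA (SD, n = 5 per group). Its CON 3 to CON 5 alone averaged −5.676 ± 0.226, with 1 MIA library above them and 1 below. No test was made on these ratios. The marker sum was itself lower in MIA 1 to MIA 5, so a gene of unchanged CPM has a higher ratio there. The share of all tested genes with ratios above the controls was not counted. The ratios of Tnf and Il18 are therefore not read as a rise within microglia.

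Some pairs of members varied alike over the libraries, without clean blocks. Over 13 libraries the Pearson correlation of log2 CPM was 0.98 between Il1a and Il1b, 0.95 between Il1b and Tnf and 0.94 between Il1b and Nlrp3. These values rest in part on CON 1 and CON 2, and over the other 11 libraries they were 0.90, 0.72 and 0.85. Il1rn was closest to Il10, at 0.96 over 13 and 0.82 over 11 libraries, and had 0.19 with Tnf over the 11. Pycard and Casp1 had 0.90 and 0.91, while Pycard and Il1b had −0.02 and 0.45. Over the 11 libraries Il6 had 0.66 with Pycard and 0.76 with Casp1, and Il10 had 0.60 and 0.69. Il18 had 0.74 with Casp1, while Tnf had 0.02 with Il6 and 0.15 with Il10. The libraries share preparation and composition, so these are descriptions.

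By Pearson correlation of log2 CPM over the 13 libraries, the gene closest to Il1b was Cd83 (r = 0.996), a surface protein of activated antigen-presenting cells. Next were Tgif1 (0.98), Tnfaip3 (0.98), which encodes the NF-kB inhibitor A20, Mcl1 (0.98), a survival factor, and Ccrl2 (0.98), an atypical chemokine receptor. Over the 11 libraries without the low pair their r with Il1b was 0.98 for Cd83 and 0.92 for the others. Cd83 was at 316 and 321 CPM in CON 1 and CON 2, at 876 CPM in CON 6 and at 1182 to 1875 CPM in the rest. Closest to Tnf by the same measure were the chemokine gene Ccl4 (0.99), Cxcl10 (0.99), Gem (0.99), Nfkbiz (0.99), an atypical inhibitor of NF-kB, and Ccrl2 (0.99). Over the 11 libraries their r with Tnf was 0.94, 0.90, 0.84, 0.66 and 0.81. Both sets were picked for the highest r among the tested genes, so high values over the 13 libraries follow from that choice. Cxcl10 was at 10.8 and 11.04 CPM in the low pair and at 106 to 280.2 CPM elsewhere.

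The other genes of these pathways were taken from 4 lists with 50 genes, 48 of them tested; Il18r1 and Mefv were not. In MIA 8 fell and none rose past the edgeR threshold, against 4.58% of all genes called lower and 5.75% called higher; at an unadjusted p under 0.05, 14 were lower and 4 higher, against 11.3% and 11.4% of all genes. DESeq2 called 12 lower and 2 higher, against 6.92% and 7.99% of all genes. Scaling to total counts alone left 5 lower, without Tnfrsf1a, Gsdmd and Adam17, and 2 higher, against 3.2% and 6.68%. The median log2 fold change of the 48 was −0.14. In the retained libraries except CON 1 and CON 2, 12 were lower and none higher, against 5.38% of all genes called lower. Of the 8 genes 7 were among them, all but Adam17. With all 13 libraries 2 of the 48 passed as lower, Il6ra and Tnfrsf1b, both among the 8, against 1.5% of all genes called lower. With all 13 except CON 1 and CON 2 edgeR called 0 of 48, against 0.561% of all genes. In that fit 13 were at an unadjusted p under 0.05, as were 19.6% of all genes. In the excluded libraries CON 6 lay below both MIA 6 and MIA 7 in 7 of the 8 genes, all but Tnfrsf1a, which is opposite to the retained groups. The share of all tested genes with that order was not counted, so the count is not read as particular to these genes. The microglia marker sum had the same order, 16437 CPM in CON 6 against 18148 and 18622 CPM.

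Receptors made up most of these calls: 5 of 13 tested fell, against 4.58% of all genes called lower. Tnfrsf1b, the TNF receptor that immune cells carry, was at 346, 400.3, 292, 301 and 316 CPM in CON 1 to CON 5 and at 229, 231, 244, 198 and 205 CPM in MIA 1 to MIA 5. Every retained MIA library lay below every retained control, while the excluded CON 6 held 255 CPM against 286 and 271 in MIA 6 and MIA 7. Tnfrsf1b fell by 0.58 ± 0.10 on the log2 scale (standard error; adjusted p = 0.00194 by edgeR). Il6ra, the ligand-binding chain for IL-6, fell by 0.61 ± 0.09 (SE), from 210.0 ± 19.8 to 137 ± 11.9 CPM (SD, n = 5 each), with no overlap among the retained libraries. CON 6 held 164 CPM of Il6ra and MIA 6 and MIA 7 held 187 and 179. The IL-10 receptor chains Il10ra and Il10rb fell by 0.52 ± 0.09 and 0.43 ± 0.10, and Tnfrsf1a, the widely expressed TNF receptor, by 0.29 ± 0.07 (SE). Leaving out CON 5, MIA 2, MIA 3, MIA 4 or MIA 5 each ended the call of Tnfrsf1a (up to 0.0739, adjusted p by edgeR). Il6st, the signalling chain shared by the IL-6 family, was at 194 ± 24.8 and 162 ± 7.75 CPM (adjusted p = 0.0842 by edgeR), and passed without CON 1 and without CON 4. These genes lay beside the lower microglia sum and the higher endothelial sum of the MIA libraries, whose part was not tested.

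Of 14 adaptors and kinases none passed edgeR, 3 were at an unadjusted p under 0.05, against 22.7% of all genes, DESeq2 called 2 as lower, and limma-voom called none, against 10.5%. Stat3, a transcription factor of IL-6 and IL-10 signalling, was at 165 ± 6.71 and 153 ± 12.9 CPM, and Myd88, the adaptor of IL-1 receptors, at 79.9 ± 14.0 and 72.7 ± 7.41 CPM (SD, n = 5 each). Socs3, a feedback inhibitor of cytokine signalling, was low in the same control pair, at 45.6 and 16.7 CPM against 133 to 137 in CON 3 to CON 5 and 71.9 to 104 in MIA. Without CON 1 and CON 2, Socs3 and Myd88 passed as lower, by 0.62 ± 0.11 and 0.32 ± 0.09 (SE; by edgeR, adjusted p of 0.00373 and 0.0394). That pair was the lowest of all libraries in Socs3, so leaving it out lowers the fold change of Socs3 by itself. With all 13 libraries except that pair neither gene passed.

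Among 12 tested partners of the inflammasome 2 fell, against 4.58% of all genes called lower. P2rx7, the ATP-gated channel that can trigger NLRP3, fell by 0.47 ± 0.10 (standard error; adjusted p = 0.00917 by edgeR), from 166 ± 23.4 to 119 ± 10.5 CPM (SD, n = 5 each) with no overlap among the retained libraries; CON 6 held 124 CPM, MIA 6 and MIA 7 139 and 135. Gsdmd, the pore protein that caspase-1 cuts, fell by 0.40 ± 0.12, right at the threshold (adjusted p = 0.0499 by edgeR). It lost the call in 8 of the 10 fits without 1 library, all but those without CON 1 or MIA 2 (edgeR adjusted p up to 0.146). Txnip, which binds thioredoxin, was at 538 and 448 CPM in CON 1 and CON 2, at 223 to 272 in CON 3 to CON 5 and at 172 to 258 in MIA. It thus ran opposite to the cytokine genes in the low pair and did not pass (adjusted p = 0.096 by edgeR), except without CON 4 (0.0460). Without CON 1 and CON 2 its log2 fold change was −0.25 ± 0.11, against −0.72 ± 0.24 with them. Casp8, at 151 ± 14.1 and 132 ± 8.31 CPM, did not pass either, except without CON 1 (adjusted p = 0.0306 by edgeR).

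Of 9 genes of TNF shedding and cytokine RNA decay, 1 fell, against 4.58% of all genes called lower, too few genes to tell from that share. Adam17, the protease that sheds TNF, fell by 0.30 ± 0.08 (standard error; adjusted p = 0.0373 by edgeR), and lost the call in 7 of the 10 fits without 1 library, all but those without CON 1, CON 3 or CON 5 (adjusted p up to 0.115). Without both CON 1 and CON 2 it was at −0.21 ± 0.07 and did not pass (adjusted p = 0.0733 by edgeR). Zfp36, which binds and destabilises Tnf RNA and is also one of the 12 immediate early genes, was at 286, 275, 1056, 929 and 984 CPM in CON 1 to CON 5 and at 725, 589, 692, 513 and 580 CPM in MIA 1 to MIA 5. Tnfaip3 was at 79.8 and 69.9 CPM in CON 1 and CON 2, 667 to 771 in CON 3 to CON 5 and 497 to 653 in MIA. Both had CON 3 to CON 5 above MIA 1 to MIA 5, as 9.72% of all tested genes did, and CON 1 and CON 2 below them. In CON 6, MIA 6 and MIA 7 Zfp36 was at 868, 770 and 850 CPM, and Tnfaip3 at 339, 701 and 785 CPM. Neither gene passed with all 10 libraries (edgeR adjusted p of 0.845 and 0.892). Without CON 1 and CON 2 both genes passed as lower, Zfp36 by 0.69 ± 0.11 and Tnfaip3 by 0.42 ± 0.10 (SE; by edgeR, adjusted p of 0.00150 and 0.0130). That pair was the lowest of all libraries in both genes, so leaving it out lowers these fold changes by itself. The 2 calls are therefore not read as support for a fall. With all 13 libraries except that pair neither gene passed. Zfp36l1, of the same RNA-binding family, was at 449 ± 93.0 and 470 ± 51.9 CPM (SD, n = 5 each).

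**Figure D4:**
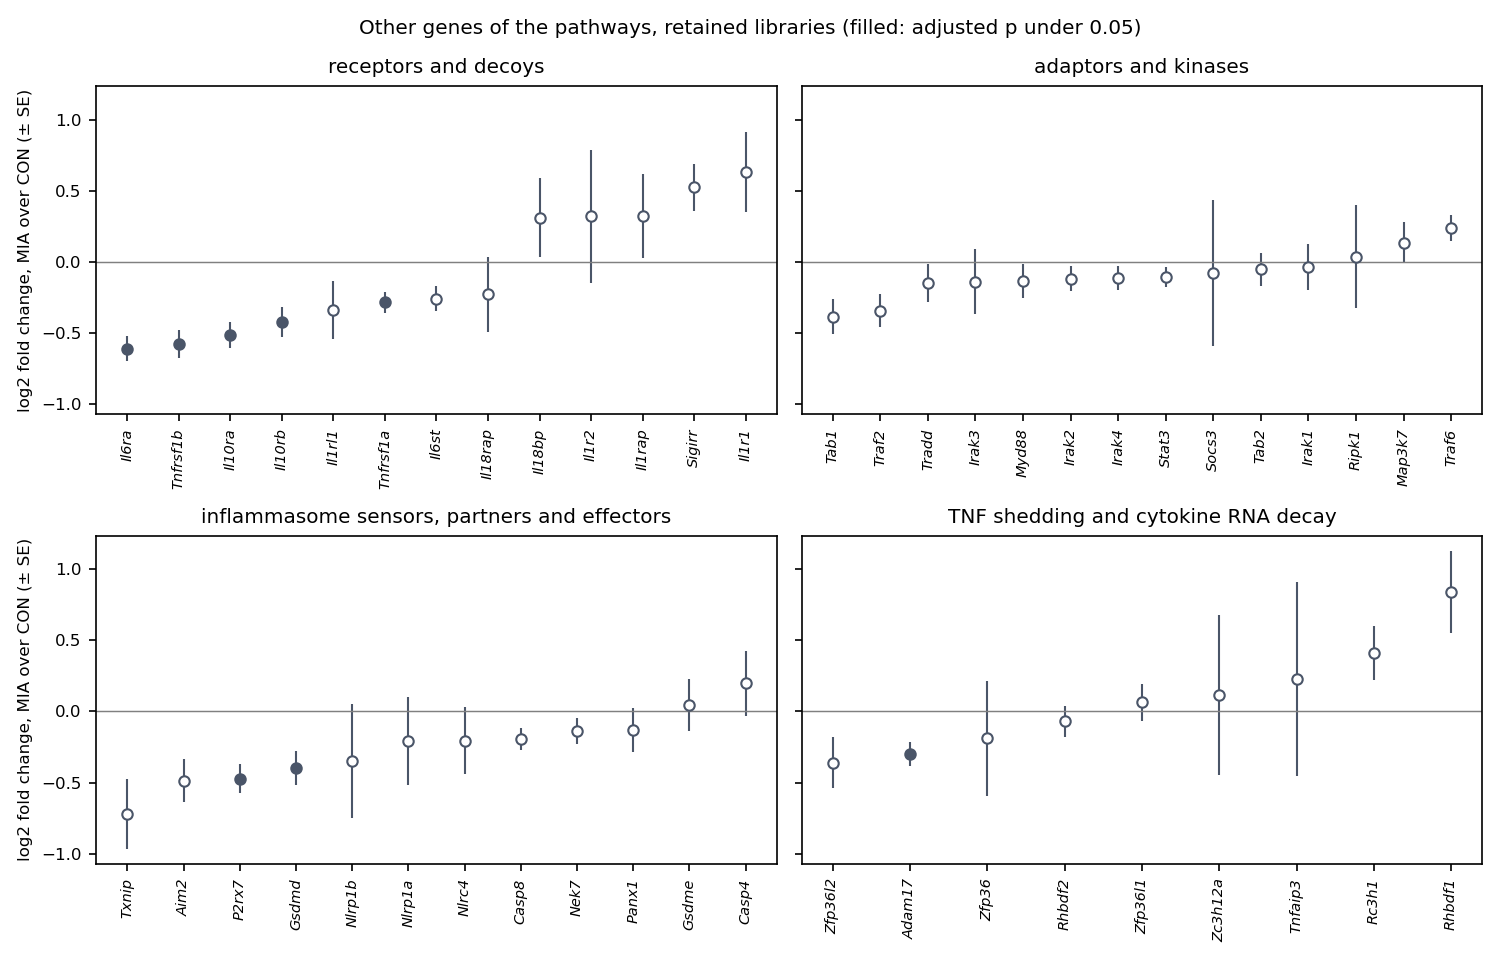
Log2 fold change of MIA over CON with its SE for the 48 tested genes of the 4 pathway lists, retained libraries; filled points have an edgeR adjusted p under 0.05. The 8 filled points all lie below 0, 5 of them receptors; Tnfaip3, Zc3h12a and Socs3 have the widest SEs.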

How the data were processed

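The deposited values are expected counts, which can be fractional, in 1 table of 55487 genes by 13 libraries, not scaled between libraries. RSEM, STAR and DESeq2 are named in the submitters' processing notes without versions or roles; genome build and annotation: not given in the sources used here. Per the labels' protocols, libraries were made by a modified Smart-Seq2 method and tagmentation, without molecular identifiers, so counting limits cover counting error only. Counts were rounded; 20.6% of nonzero values were not whole and none moved by over 0.5. Symbols were matched by Ensembl ID without the version for 55141 IDs. Retained libraries were compared by the quasi-likelihood test of edgeR 4.0.16 under R 4.3.3, with filterByExpr, TMM scaling, a robust fit and group as the only term, with Benjamini-Hochberg adjustment over all 15511 genes and a threshold of 0.05. Each SE was taken as the absolute log2 fold change over the square root of the F statistic. Levels use TMM factors of the 13 libraries together, and log2 CPM a prior count of 2. The fit was tested on simulated data. Alternatives were other scalings and filters, DESeq2 1.42.0, limma-voom 3.58.1, other sets of libraries, unrounded counts, an exact permutation test and a replicate block. All 10 members were named; of the other pathway genes, those that passed and the 3 most abundant of each list; and the 5 genes most correlated with Il1b and with Tnf, clone and model names left out. The members, lists and alternatives were chosen with earlier results of these data known.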

Additional observations from a re-analysis of the deposited data

Results flagged for a closer look

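Il1a and Tnf lay above all 5 retained controls in both excluded MIA libraries, and Il1b did so in MIA 6 alone. The share of all tested genes with such an order was not counted, so this is not read as particular to these genes. Il1a was at 715 CPM in MIA 6 and at 751 CPM in MIA 7, against a highest retained control of 598 CPM. Tnf was at 569 CPM in MIA 6 and 614 CPM in MIA 7, against 554 CPM. Il1b in MIA 6, at 489.5 CPM, exceeded CON 5, at 489.3 CPM, by less than any spread between libraries. These libraries enter no main comparison, and no difference was tested.

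Tnfrsf1a in CON 5, at 176 CPM, stood apart from the other retained controls, the next of which held 150 CPM; the gap was 0.907 of the range, over the limit of 0.71 for 5 values. Of 36 groups of 5 libraries examined this was the only one, and chance flags about 1 in 20.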

How the results depend on the processing

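The count of genes past the threshold, 1602, was 659 with all 13 libraries and 90 with all 13 except CON 1 and CON 2. Fits without 1 library gave 1037 to 2263, the lowest without MIA 5 and 1057 without MIA 4. Members past it, 1, were 2 in DESeq2 and in the retained libraries except CON 1 and CON 2, 0 with all 13 except those, and 1 to 2 in fits without 1 library. Pathway genes past it, 8, were 14 in DESeq2, 2 with all 13 libraries, 0 with all 13 except CON 1 and CON 2, 12 in the retained libraries except that pair, and 5 to 11 without 1 library.

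Without CON 1 and CON 2 the log2 fold change turned to −0.21 for Il1a, −0.55 for Il1b, −0.36 for Il1rn, −0.14 for Tnf, −0.27 for Nlrp3, −0.42 for Tnfaip3 and −0.12 for Zfp36l1. With all 13 libraries except those it was −0.018 for Il1b, −0.24 for Il1rn, −0.067 for Tnfaip3 and −0.095 for Zfp36l1. Leaving out 1 library gave −0.17 to 0.48 for Il1b, −0.13 to 0.45 for Il1rn, −0.014 to 0.38 for Nlrp3, −0.12 to 0.042 for Il18, −0.35 to 0.097 for Socs3, −0.049 to 0.49 for Tnfaip3, −0.39 to 0.0021 for Zfp36 and −0.025 to 0.15 for Zfp36l1. Without a change of sign it gave 0.24 to 0.81 for Tnf, 0.13 to 0.62 for Il1a, −0.70 to −0.21 for Il6 and −0.94 to −0.11 for Il10; Tnf was at 1.33 in limma-voom. Il18 turned to 0.032 with total counts, 0.012 with the strict filter of 10 CPM in 5 libraries and 0.0082 with all 13 libraries. With limma-voom Il10 was at 0.60, Socs3 at 0.26 and Zfp36 at 0.039, and Socs3 was at 0.073 with all 13 libraries. Il10 was at 0.56 in the exact permutation test (p = 0.754). None of these turned values but Tnfaip3 without CON 1 and CON 2 passed a test, and beyond the libraries left out the causes were not tested.

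The replicate numbers were treated as shared names only: deviations of same-numbered libraries correlated at 0.058 to 0.30 over genes, and not every pair was over 0.1. With the replicate block 1524 genes, 1 member and 7 pathway genes passed; Pycard stayed at −0.51 (edgeR adjusted p = 0.0136), Gsdmd and Adam17 lost their calls (0.0521 and 0.0544), and Tnf was at 1.24, while Il10 was at 0.0037, Socs3 at 0.24 and Zfp36 at 0.027. Il6 had 12 to 93 counts per library and Il10 1 to 392, which limits their precision.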
